A study of Mus musculus with 6 samples.

Results

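The transcripts described here are those of 50 mouse genes for mitosis, the mitotic spindle and the kinetochore, measured by RNA-seq in primary mouse embryonic fibroblasts (pMEFs). The genes were chosen by symbol from a list of cell division genes that was drawn up with earlier results of these data known. All 50 were found among the 17512 genes of the count table. They passed the filter on low counts, which left 14773 genes for testing. The study compared 3 HAT1 WT lines (36, 47 and 78) with 3 HAT1 KO lines (33, 41 and 72), all on the C57bl6 strain background and with no treatment named in the labels, to ask how transcription depends on HAT1, the acetyltransferase that modifies newly made histone H4. Per the study's methods, pMEFs were grown from mid-gestation embryos after the internal organs had been taken out, so that each line is a mixed population of embryonic cells. Genotypes were typed in those methods by PCR of the WT and mutant alleles, and the embryonic day of each line and the embryo behind it are not given in the sources used here. Each line was counted as 1 replicate, and the p-values measure only the spread between these lines, part of which may be technical.

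Mitosis is driven by the kinase CDK1 bound to cyclin A or cyclin B. Polo-like and Aurora kinases build the spindle, kinesin motors move microtubules and chromosomes, and kinetochores assembled on centromeric chromatin attach the chromosomes to the spindle. The spindle assembly checkpoint holds CDC20 away from the anaphase-promoting complex until every kinetochore is attached, after which securin and cyclin B are destroyed, separase frees the sister chromatids, and the spindle midzone directs cytokinesis. Transcripts of these genes are made mainly in G2 and mitosis, under complexes that bind the cell cycle genes homology region (CHR) and under NF-Y, which binds CCAAT boxes. In a bulk culture, more cells in G2 and mitosis cannot be told apart from more RNA of these genes per cell.

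The sequence that the members shared lay at their transcription starts. RefSeq promoter windows of GRCm38.p6, each holding 250 bases before and 50 bases from the start onwards, matched 43 of the 50 members by symbol. A CHR motif, searched as TTTGAA or TTCGAA on both strands, was found in 32 of the 43 members (74.4%) and in 21.7% of all 27025 genes with a window, or 19.2% of all 32851 windows. A CCAAT box, searched on both strands, was found in 32 members (74.4%), against 41.1% of all genes and 37.4% of windows. The CHR matches clustered at the start. In 30 members (69.8%) a CHR began at base -50 or later, against 6.12% of all genes, a limit chosen after the positions had been seen. A CCAAT box lay 20 to 40 bases before a CHR in 16 members (37.2%) and in 1.1% of all genes, and this spacing was also chosen after the positions had been seen. A CHR that ends in A can share that base with a CCAAT box on the other strand. The E2F motif, searched as TTTGGCGC or TTTCGCGC on both strands, was found in 2 members (4.65%) and in 0.929% of all genes. These matches describe letters in the windows and not bound sites.

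Promoter stretches of 6 members are shown, those with the smallest p-values among the members that hold a CHR before the start. Each has 100 bases of GRCm38.p6 on the strand of the gene, 5′ to 3′, and the capitals mark the CHR (TTTGAA, or TTCAAA where it lies on the other strand) and the CCAAT box (CCAAT, or ATTGG on the other strand).
Top2a, chr11:99024190-99024289, minus strand: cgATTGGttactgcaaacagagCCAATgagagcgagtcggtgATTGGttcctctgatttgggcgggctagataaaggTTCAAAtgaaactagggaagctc
Prc1, chr7:80294376-80294475, plus strand: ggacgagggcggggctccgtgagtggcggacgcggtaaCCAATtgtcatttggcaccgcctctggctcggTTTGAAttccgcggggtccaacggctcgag
Espl1, chr15:102296193-102296292, plus strand: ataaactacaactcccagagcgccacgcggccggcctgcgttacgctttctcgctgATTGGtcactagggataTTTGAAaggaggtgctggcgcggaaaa
Cdk1, chr10:69352913-69353012, minus strand: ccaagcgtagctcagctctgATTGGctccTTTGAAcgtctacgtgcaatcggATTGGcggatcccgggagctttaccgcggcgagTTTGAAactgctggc
Cenpn, chr8:116921640-116921739, plus strand: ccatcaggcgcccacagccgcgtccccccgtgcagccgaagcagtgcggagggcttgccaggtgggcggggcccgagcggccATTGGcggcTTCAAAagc
Bub3, chr7:131560270-131560369, plus strand: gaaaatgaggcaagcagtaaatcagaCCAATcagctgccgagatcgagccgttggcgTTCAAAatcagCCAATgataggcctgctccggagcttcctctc
In Top2a and Prc1 the CHR began 23 and 30 bases before the start, with a CCAAT box upstream of it. From another annotated start of Prc1 the same CHR began at -5. Cdk1 held a CHR on either side of a CCAAT box, at -71 and -15. Bub3, whose level differed least between the lines among the members, held the same letters as the rest, with a CHR at -43 and CCAAT boxes at -74 and -32. From another annotated start of Bub3 that CHR began at -167.

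**Figure D1:**
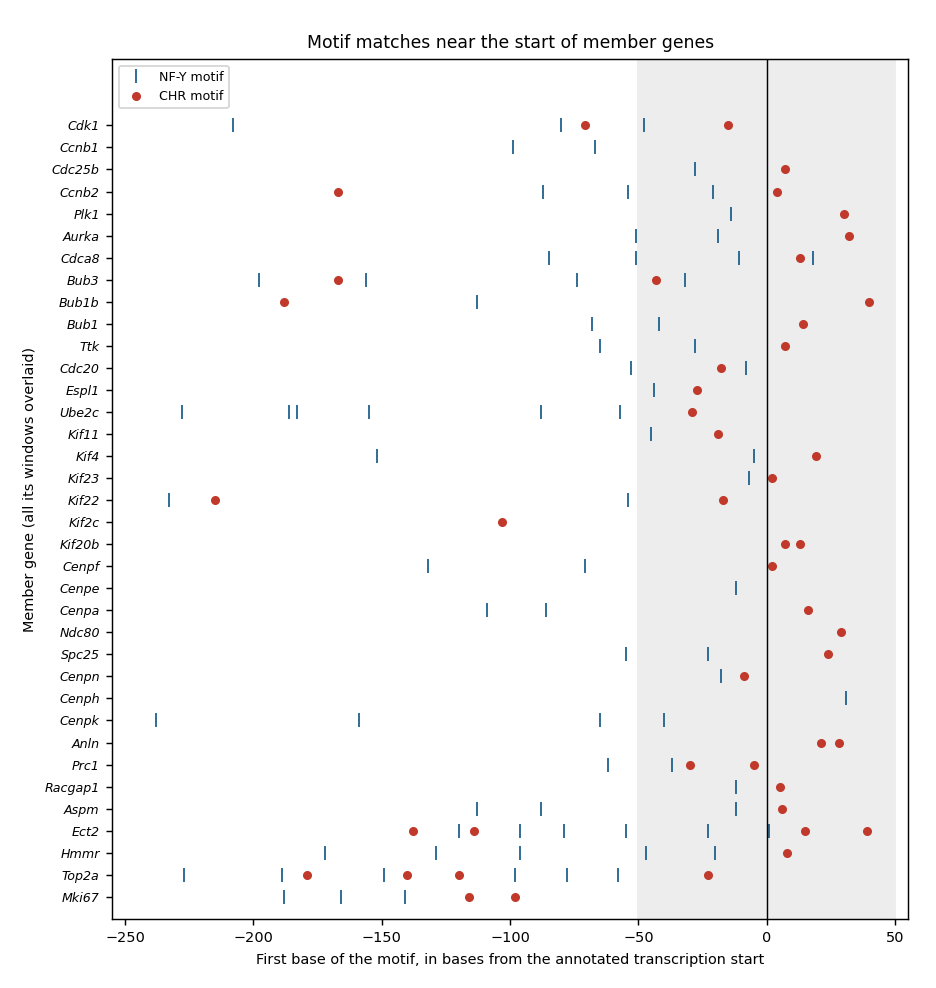
Positions of CHR motifs (red points) and of CCAAT boxes, bound by NF-Y (blue ticks), in 36 members with at least 1 of them, in bases from the annotated start, with the 50 bases on either side of the start shaded. The red points gather in the shaded band, where 30 of the 43 matched members hold a CHR, while the blue ticks lie mostly before the start.

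Among the 43 matched members, those with a CHR at base -50 or later had a median log2 fold change of 0.66 (HAT1 KO over HAT1 WT, n = 30) and those without one had 0.67 (n = 13). Of the former 17 and of the latter 5 had an unadjusted p-value under 0.05 and were higher, beside 5.88% of all tested genes. The lowest log2 fold changes were 0.19 with such a CHR and -0.016 without one. The difference between these groups was not tested. The 7 members without a window (Aurkb, Ccna2, Cdc25c, Incenp, Kif20a, Spc24 and Tpx2) had a median of 0.77.

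Before the members were compared, the lines were checked. Total counts lay between 67720628 and 98786746 per library. Hat1, the targeted gene, measured 17.4, 23.0 and 20.1 CPM (counts relative to the TMM-scaled library size) in WT lines 36, 47 and 78 and 10.2, 10.0 and 10.3 CPM in KO lines 33, 41 and 72, a log2 fold change of -0.99 (SE 0.12, edgeR adjusted p = 0.0376). The adjusted p-value in edgeR was 0.529 with the sequencing lane as a term, 0.254 with the level of Y-linked genes as a term, and 0.0587 to 0.230 without 1 line. Reads were assigned to it in every KO line. KO line 72 stood apart, being the highest line in 26.0% of the tested genes. Summed counts of 4 Y-linked genes (Uty, Ddx3y, Eif2s3y and Kdm5d) were 13788 and 12841 in WT lines 36 and 47 but 231 in WT line 78, and they lay between 4 and 8 in HAT1 KO. Genotypes were spread unevenly over the sequencing lanes, with WT 47, KO 33 and KO 72 on lane 6, WT 78 and KO 41 on lane 7, and WT 36 alone on lane 8. The fibroblast markers were abundant throughout, and Col1a1 was at 25022 CPM or more in every line. All 10 myeloid markers were detected, with a summed level of 2739 to 2980 CPM in HAT1 WT and 1437 to 1730 CPM in HAT1 KO. These features moved with genotype or differed between lines of a genotype, and their part in the results below was not tested except where a fit with the lane or the Y-linked level, or without a line, is given. No KO line had a high Y-linked level, so the fit with that level set the KO lines against WT line 78 alone. In the fit with the lane, WT line 36, alone on lane 8, did not bear on genotype.

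The summed level of the mitotic transcripts had a higher mean in HAT1 KO than in HAT1 WT, with overlap between the lines. The 50 members together took 1015, 1539 and 999.97 CPM in WT lines 36, 47 and 78 and 2248, 1789 and 1395 CPM in KO lines 33, 41 and 72. The means were 1185 ± 307 CPM in HAT1 WT and 1811 ± 427 CPM in HAT1 KO (SD, n = 3 each), a ratio of 1.53. KO lines 33 and 41 lay above every WT line, whereas KO line 72 lay below WT line 47, so the ranges of the genotypes met.

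No single member passed the test at an adjusted p-value under 0.05 in edgeR, and the lowest adjusted p-value was 0.206. At that threshold 78 genes passed in either direction, 0.528% of the 14773 tested. Before adjustment, 28 of the 50 members had p under 0.05 and were higher in HAT1 KO and 0 were lower, against 5.88% higher and 8.77% lower over all tested genes. With a difference of at least 1.5-fold as well, which is the threshold of the study, 24 members were higher, against 1.5% of all tested genes. The log2 fold change was above 0 for 49 members, against 51.5% of all tested genes, and its median over the members was 0.67, against 0.0085 over all tested genes. Differences of at least 1.5-fold were measured for 37 members, against 5.63% of all tested genes. In 11 members all 3 KO lines lay above all 3 WT lines, a share of the members to be read against 9.59% of all tested genes. For a single gene with 3 lines a side, the exact permutation test cannot go below p = 0.1.

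**Figure D2:**
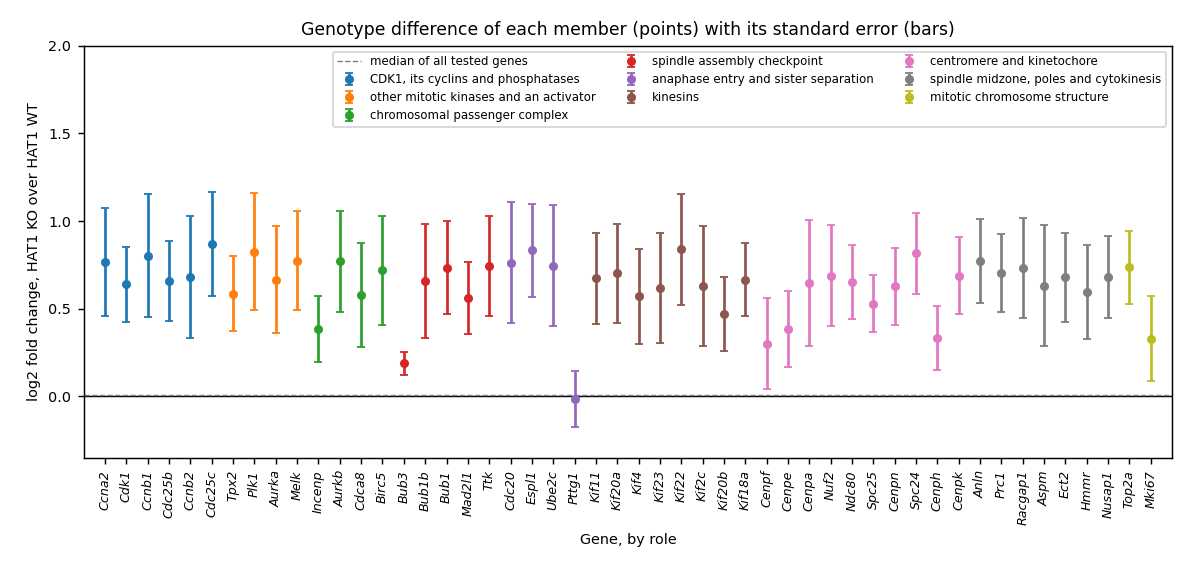
Log2 fold change of each of the 50 members, HAT1 KO over HAT1 WT, on the vertical axis, with bars of 1 standard error from the edgeR fit and colours for the role of the gene. Of the points, 49 lie above 0 and most lie between 0.5 and 0.9, with Bub3, Mki67, Cenpf, Cenph, Incenp, Cenpe and Kif20b lower and Pttg1 at -0.016.

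The number of members past the unadjusted threshold depended on the fit. The DESeq2 Wald test put 39 members higher at an unadjusted p-value under 0.05 (7.49% of all tested genes), and it placed 5 of them under 0.05 after adjustment (1.53% of all tested genes were higher at that threshold). Those 5 were Top2a, Spc24, Anln, Espl1 and Prc1, with adjusted p-values of 0.0161 to 0.0399 in DESeq2. Voom with quality weights put 37 higher at an unadjusted p-value (7.42% of all tested genes) and 0 after adjustment (0.0271%). With the sequencing lane as a term in edgeR the count at an unadjusted p-value was 0 in place of 28, while the share over all tested genes was 1.39% in place of 5.88%, and the median log2 fold change of the members was 0.57. With the Y-linked level as a term the median was 0.95, a contrast of the KO lines with WT line 78 alone. Leaving out WT line 36, WT line 78, KO line 33 or KO line 41 gave 2, 4, 3 and 9 members, beside 3.02%, 3.11%, 4.30% and 5.41% of all genes tested in those fits. Leaving out KO line 72 or WT line 47 gave 46 members in either case, beside 9.06% and 4.999% of all genes tested.

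The members varied together across the lines, and their order was nearly the same from gene to gene. KO line 33 was the highest line for 48 members, against 18.9% of all tested genes. KO line 33 lay above KO line 41 and KO line 41 above KO line 72 in 46 members (92%, against 22.1% of all tested genes). Among the WT lines, line 47 was above both others in 49 members (98%, against 27.2%). The lowest line was WT line 78 for 33 members and WT line 36 for 16, beside 2952 and 1768 of all 14773 tested genes. KO lines 33 and 41 were both above all WT lines in 47 members (94%, against 18.4%), and it was KO line 72 that overlapped with WT line 47 in most members. KO line 72 exceeded WT lines 36 and 78 in 48 members but exceeded WT line 47 in only 12, with a median log2 ratio of -0.14. Over all 14773 tested genes these 2 counts were 5816 and 7410. The order was not particular to the members. Among DNA replication genes and other kinetochore and spindle genes, described below, KO line 33 was highest in 80% and 77.1%. WT line 47 was above both other WT lines in 97.5% and 91.7% of these.

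**Figure D3:**
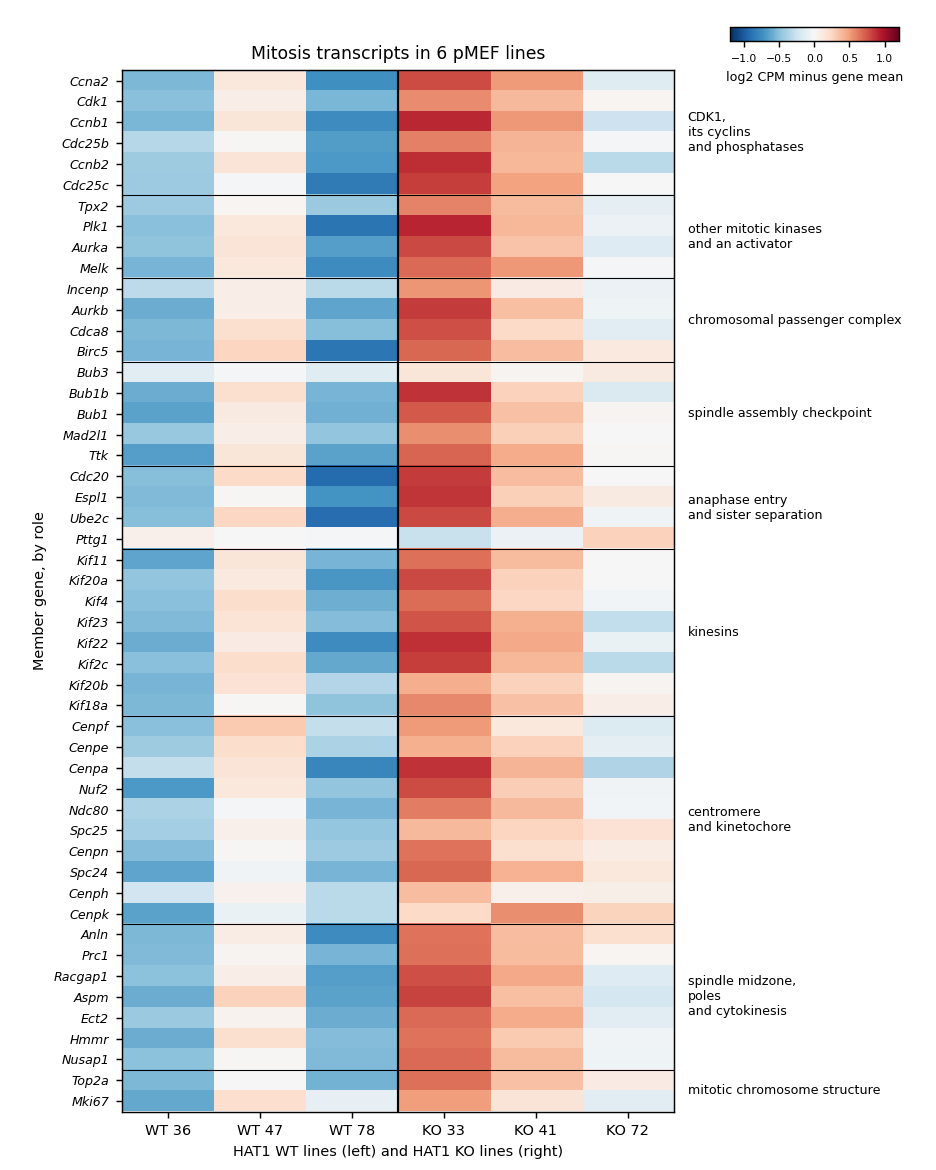
Log2 CPM of each member minus its mean over the 6 lines (colour scale, red above and blue below the mean), with 1 row per gene, grouped by role, and 1 column per line. KO line 33 is red in nearly every row, WT lines 36 and 78 are blue, and WT line 47 and KO line 72 are close to the mean. Pttg1 is lowest in KO line 33 and highest in KO line 72. Bub3, Cenph and Cenpk also depart from the order of KO line 33 above 41 above 72.

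Within sequencing lanes the comparison came down to single lines and was made without a test. In lane 6, KO line 33 was above WT line 47 in 49 of 50 members (median log2 ratio 0.59), whereas KO line 72 was above it in 12 (median -0.14). Over all 14773 tested genes these 2 counts were 7469 and 7410. In lane 7, KO line 41 was above WT line 78 in 49 members (median 0.94). Lane 8 held 1 WT line and no KO line. The 4 lines with low Y-linked counts could also be set side by side, and KO lines 33, 41 and 72 were each above WT line 78 in 49 members, with median log2 ratios of 1.28, 0.94 and 0.52. These medians were above 0 except that of KO line 72 over WT line 47. Over all 14773 tested genes, KO lines 33, 41 and 72 were above WT line 78 in 7049, 7153 and 7356. WT line 78 was itself the lowest line for 33 members.

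The spread across lines was wide for these genes. The ratio of the highest to the lowest line had a median of 2.45 over the members, and it exceeded 2 in 43 of them (86%, against 29.5% of 14621 genes with a count in every line, whose median was 1.45). The widest ratios, named here after their values had been seen, were those of Plk1 (3.45), Cdc20 (3.40), Ube2c (3.26), Cdc25c (3.19) and Ccnb1 (3.16). Plk1, the polo-like kinase of mitotic entry, Cdc20 and Ube2c, which act with the anaphase-promoting complex, and cyclin B1 are transcribed mainly in late G2. Bub3 (1.22), Pttg1 (1.46) and Cenph (1.61) varied least.

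CDK1, its cyclins and its activating phosphatases were measured by 6 genes, all higher in HAT1 KO, with a median log2 fold change of 0.72. Of these, 4 had an unadjusted p-value under 0.05. Such counts, in each role, are to be read beside 5.88% of all tested genes, and counts without overlap beside 9.59%. Cdk1 (chromosome 10, 69335146 to 69352938, minus strand of GRCm38), whose product is the mitotic kinase itself, measured 28.1, 42.1 and 27.4 CPM in WT lines 36, 47 and 78 and 59.0, 52.2 and 40.6 CPM in KO lines 33, 41 and 72. KO line 72 lay just below WT line 47. The log2 fold change was 0.64 (SE 0.21, edgeR adjusted p = 0.265). Ccna2, which codes for cyclin A2 and was the most abundant of the group, measured 29.8, 47.6 and 26.1 CPM in HAT1 WT and 74.7, 62.0 and 39.2 CPM in HAT1 KO in the same order of lines, again with KO line 72 below WT line 47. Its log2 fold change was 0.77 (SE 0.31). Cdc25c, a phosphatase that switches CDK1 on, had the largest log2 fold change of all members, 0.87 (SE 0.30, edgeR adjusted p = 0.271). Its level was low, 3.08, 4.09 and 2.30 CPM in HAT1 WT and 7.35, 5.80 and 4.12 CPM in HAT1 KO, and the genotypes did not overlap, although the lowest KO line exceeded the highest WT line only narrowly. The summed level of the group was 1.65 times as high in HAT1 KO.

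The other mitotic kinases and the activator TPX2 made up 4 genes, Plk1, Aurka, Melk and Tpx2, and 3 of them had an unadjusted p-value under 0.05. Tpx2, whose product activates Aurora A on the spindle, measured 50.2, 69.1 and 49.996 CPM in WT lines 36, 47 and 78 and 102, 88.6 and 62.8 CPM in KO lines 33, 41 and 72. KO line 72 fell between the WT lines, and the log2 fold change was 0.58 (SE 0.21, edgeR adjusted p = 0.300). The group had a median log2 fold change of 0.72 and 0 of the 4 genes separated the genotypes. The chromosomal passenger complex, which corrects attachments at the centromere, was covered in full by Aurkb, Incenp, Birc5 and Cdca8. Its median log2 fold change was 0.65, and 1 gene, Aurkb, had an unadjusted p-value under 0.05. Aurkb, the kinase of the complex, measured 12.1, 19.4 and 11.8 CPM in HAT1 WT and 32.6, 23.5 and 17.7 CPM in HAT1 KO in the same order of lines. Incenp, its scaffold, was the most abundant member of the complex and differed less, with 27.8, 36.5 and 27.6 CPM in HAT1 WT against 49.8, 37.1 and 32.8 CPM in HAT1 KO and a log2 fold change of 0.38 (SE 0.19). In both genes KO line 72 lay below WT line 47.

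Of the 5 spindle assembly checkpoint genes, Bub1, Bub1b, Bub3, Mad2l1 and Ttk, 4 had an unadjusted p-value under 0.05, and the median log2 fold change was 0.66. Bub3, which brings the BUB1 and BUBR1 kinases to kinetochores, behaved differently in size. It measured 72.9, 79.2 and 72.3 CPM in WT lines 36, 47 and 78 and 88.0, 81.4 and 86.2 CPM in KO lines 33, 41 and 72. All KO lines lay above all WT lines, yet the log2 fold change was 0.19 (SE 0.07, edgeR adjusted p = 0.280), the smallest among the members that were higher. As a result its part of the summed CPM of the members lay between 3.92% and 6.18% in HAT1 KO and between 5.15% and 7.23% in HAT1 WT, ranges that overlap. The other checkpoint genes followed the general order of lines, with log2 fold changes of 0.56 for Mad2l1 to 0.74 for Ttk.

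Anaphase entry and sister separation were represented by 4 genes. Espl1, which codes for separase, the protease that cuts cohesin, measured 14.7, 21.4 and 12.9 CPM in WT lines 36, 47 and 78 and 38.4, 25.9 and 22.9 CPM in KO lines 33, 41 and 72. The genotypes did not overlap, and the log2 fold change was 0.83 (SE 0.26, edgeR adjusted p = 0.243). Cdc20, the mitotic activator of the anaphase-promoting complex, measured 20.4, 34.1 and 15.3 CPM in HAT1 WT and 52.1, 37.5 and 28.9 CPM in HAT1 KO, with KO line 72 below WT line 47 and a log2 fold change of 0.76 (SE 0.34). Pttg1, which codes for securin, the inhibitor of separase, was the only member with a log2 fold change below 0. It measured 7.90, 7.63 and 7.51 CPM in HAT1 WT and 6.32, 7.25 and 9.22 CPM in HAT1 KO. The WT lines were nearly equal, and the KO lines ran opposite to most other members, lowest in line 33 and highest in line 72. Its log2 fold change was -0.016 (SE 0.16, edgeR adjusted p = 0.973), and the sign turned to 0.016 with the Y-linked level as a term.

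The 8 kinesins were all higher in HAT1 KO, 4 of them at an unadjusted p-value under 0.05, with log2 fold changes from 0.47 (Kif20b) to 0.84 (Kif22). Kif18a, a motor that trims kinetochore microtubules, measured 4.22, 6.20 and 4.41 CPM in WT lines 36, 47 and 78 and 9.16, 7.86 and 6.49 CPM in KO lines 33, 41 and 72. It was the kinesin in which the genotypes did not overlap, with a log2 fold change of 0.67 (SE 0.21, edgeR adjusted p = 0.241). Kif11, the motor that separates the spindle poles, was the most abundant kinesin on the CPM scale and measured 21.3, 36.5 and 22.3 CPM in HAT1 WT and 51.9, 42.7 and 33.1 CPM in HAT1 KO. KO line 72 again lay between WT line 47 and the other WT lines, and the log2 fold change was 0.67 (SE 0.26).

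**Figure D4:**
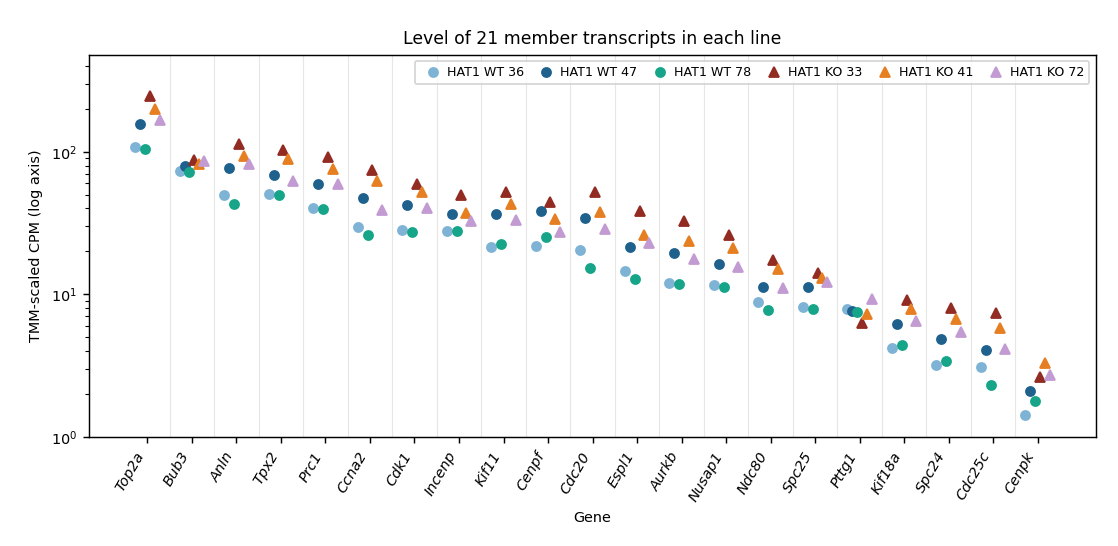
CPM of 21 members in each of the 6 lines on a log axis, circles for HAT1 WT and triangles for HAT1 KO, ordered by mean level. In Top2a, Spc24, Anln and Espl1 the 3 triangles lie above the 3 circles, while in Cdk1, Tpx2 and Ccna2 the triangle of KO line 72 lies below the circle of WT line 47.

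Centromere and kinetochore proteins were coded by 10 members, all higher in HAT1 KO, with a median log2 fold change of 0.64. In 5 of them every KO line lay above every WT line, beside 9.59% of all tested genes. At an unadjusted p-value under 0.05, 5 were higher, beside 5.88% of all tested genes. The NDC80 complex, the main microtubule coupler, was covered by all its subunits. Spc24 (chromosome 9, 21755442 to 21760303, minus strand) measured 3.21, 4.84 and 3.39 CPM in WT lines 36, 47 and 78 and 8.03, 6.67 and 5.43 CPM in KO lines 33, 41 and 72. Every KO line was above every WT line, and the log2 fold change was 0.82 (SE 0.23, edgeR adjusted p = 0.206). Spc25, its partner, measured 8.17, 11.3 and 7.87 CPM in HAT1 WT and 14.2, 12.97 and 12.2 CPM in HAT1 KO, with a log2 fold change of 0.53 (SE 0.16) and no overlap. Ndc80 and Nuf2, which touch the microtubule, had log2 fold changes of 0.65 (SE 0.21) and 0.69 (SE 0.29), and in both KO line 72 lay below WT line 47. Cenpk, of the constitutive centromere network, was the member with the lowest level, with 1.43, 2.11 and 1.79 CPM in HAT1 WT and 2.62, 3.28 and 2.70 CPM in HAT1 KO. It was the 1 member in which KO line 41 was highest, and its lowest count was 108. Cenpf, a large outer kinetochore protein, differed little, at 21.8, 38.4 and 25.2 CPM in HAT1 WT and 44.0, 33.6 and 27.4 CPM in HAT1 KO, a log2 fold change of 0.30 (SE 0.26, edgeR adjusted p = 0.644). WT line 47 was above KO lines 41 and 72 in it.

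The 7 genes of the spindle midzone, poles and cytokinesis had log2 fold changes from 0.60 to 0.77, and 5 had an unadjusted p-value under 0.05. Anln, which codes for anillin, the scaffold of the contractile ring, measured 49.7, 76.9 and 42.8 CPM in WT lines 36, 47 and 78 and 113.5, 93.3 and 82.4 CPM in KO lines 33, 41 and 72. The genotypes did not overlap, and the log2 fold change was 0.77 (SE 0.24, edgeR adjusted p = 0.234). Prc1, which bundles the antiparallel microtubules of the midzone, measured 40.4, 59.5 and 39.6 CPM in HAT1 WT and 92.0, 75.9 and 59.2 CPM in HAT1 KO. WT line 47 and KO line 72 were almost equal in it, and the log2 fold change was 0.70 (SE 0.22). Nusap1, a microtubule stabilizer near chromosomes, measured 11.6, 16.4 and 11.2 CPM in HAT1 WT and 26.0, 21.1 and 15.6 CPM in HAT1 KO, with KO line 72 below WT line 47.

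Top2a and Mki67 act on the mitotic chromosome itself and were the most abundant members on the CPM scale. Top2a (chromosome 11, 98992943 to 99024189, minus strand), which codes for the topoisomerase that untangles sister chromatids, measured 107, 156 and 105 CPM in WT lines 36, 47 and 78 and 247, 199.6 and 168 CPM in KO lines 33, 41 and 72. All KO lines were above all WT lines. Its p-value was the smallest of the members, with a log2 fold change of 0.74 (SE 0.21, edgeR adjusted p = 0.206). Mki67, which coats mitotic chromosomes and is widely used as a marker of cycling cells, measured 81.6, 143 and 116 CPM in HAT1 WT and 176, 139 and 113 CPM in HAT1 KO. The genotypes overlapped broadly in it, with a log2 fold change of 0.33 (SE 0.24, edgeR adjusted p = 0.584), and it was taken up here after its values had been seen. WT line 78 was the lowest line for 33 members but not for Mki67, which took 11.6% of the summed CPM of the members there and 7.75% to 9.32% in the other lines.

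Compared per kilobase of annotated exon, a scale on which genes can be ranked, the mean HAT1 WT level of the members ran from 0.340 CPM per kilobase for Cenpk to 13.6 for Top2a. Cdc20 (12.5), Tpx2 (12.1), Mki67 (11.3), Plk1 (11.1) and Bub3 (10.7) followed Top2a, and Kif18a (0.502) and Cdc25c (0.642) lay next to Cenpk. In HAT1 KO, Top2a was at 22.7, Cdc20 at 21.1 and Plk1 at 19.6 CPM per kilobase, while Bub3 was at 12.2. In 15 members some exon bases are shared with another gene, in 14 of them with a gene on the opposite strand, among them Prc1, Kif18a, Cenpk, Nusap1, Ccna2 and Cdc20. The library kit does not mark strand, so the counts of these genes can include reads of the neighbour.

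Genes of the same pathway outside the 50 members were examined by lists. Of 48 other kinetochore and spindle genes, 45 were higher in HAT1 KO, beside 51.5% of all tested genes. The median log2 fold change of the 48 was 0.55. At an unadjusted p-value under 0.05, 17 were higher, beside 5.88% of all tested genes. Cenpt, which links the centromere to the NDC80 complex, measured 10.2, 10.9 and 8.77 CPM in WT lines 36, 47 and 78 and 14.0, 12.5 and 13.5 CPM in KO lines 33, 41 and 72. Sgo2a, a protector of centromeric cohesion, had a log2 fold change of 0.69 (SE 0.19), and the genotypes did not overlap in either gene. The 1 gene of the list that was lower at an unadjusted p-value under 0.05 was Numa1, a spindle pole protein, with a log2 fold change of -0.23 (SE 0.07). Subunits and partners of the anaphase-promoting complex, which are needed outside mitosis too, had a small median difference. Of 17 such genes, 3 were higher with an unadjusted p-value under 0.05, beside 5.88% of all tested genes, namely Cdc16, Fbxo5 and Ube2s. The median log2 fold change was 0.10. Of the 17 genes, 15 were higher in HAT1 KO, beside 51.5% of all tested genes. In 5 of them every KO line lay above every WT line, beside 9.59% of all tested genes. Fbxo5, the inhibitor EMI1, had a log2 fold change of 0.73 (SE 0.23), and Cdc16, a subunit of the complex, had 0.20 (SE 0.05).

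Regulators that act on mitotic genes or on CDK1 numbered 26. Of these, 8 were higher and 3 lower at an unadjusted p-value under 0.05, beside 5.88% and 8.77% of all tested genes, so that the lower count was near the background, and the median log2 fold change was 0.24. Nfya, a DNA-binding subunit of NF-Y, was lower. It measured 73.3, 76.3 and 69.9 CPM in WT lines 36, 47 and 78. In KO lines 33, 41 and 72 it measured 53.2, 61.1 and 50.02 CPM. Its log2 fold change was -0.42 (SE 0.09, edgeR adjusted p = 0.128). The other NF-Y subunits, named after their values had been seen, had the opposite sign. Nfyb had a log2 fold change of 0.29 (SE 0.11, edgeR adjusted p = 0.300), and Nfyc had 0.16 (SE 0.15). E2f7, a repressor of E2F targets that is itself transcribed in S phase, was higher, with 9.18, 14.6 and 10.4 CPM in HAT1 WT and 22.8, 18.0 and 19.6 CPM in HAT1 KO and a log2 fold change of 0.82 (SE 0.20, edgeR adjusted p = 0.156). Foxm1, the forkhead factor that acts with the MuvB complex at CHR promoters, was named here after its values had been seen and followed the members, with 24.3, 38.0 and 24.3 CPM in HAT1 WT and 56.4, 44.5 and 35.2 CPM in HAT1 KO. Among 7 CDK inhibitors the median log2 fold change was -0.01, with 3 higher and 4 lower in HAT1 KO, beside 51.5% of all tested genes higher. Cdkn2d was the 1 gene of these at an unadjusted p-value under 0.05, with a log2 fold change of 0.57 (SE 0.12), and Cdkn2c had 0.27 (SE 0.18).

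DNA replication genes, made mainly in G1 and S phase, were higher as well. All 40 had a log2 fold change above 0, beside 51.5% of all tested genes, and the median was 0.46. At an unadjusted p-value under 0.05, 25 were higher, beside 5.88% of all tested genes. The 0 calls after adjustment in edgeR compare with 12 in the DESeq2 Wald test, where 1.53% of all tested genes were higher. Rrm2, a subunit of ribonucleotide reductase, measured 49.9, 73.9 and 53.5 CPM in WT lines 36, 47 and 78 and 105, 98.3 and 143 CPM in KO lines 33, 41 and 72, and here KO line 72 was the highest. Ccne2, which codes for cyclin E2, had a log2 fold change of 0.54 (SE 0.11). In sum the replication genes took 1005, 1365 and 1077 CPM in HAT1 WT and 1715, 1596 and 1442 CPM in HAT1 KO, and every KO line was above every WT line. The summed level of the members relative to that of the replication genes was 1.01, 1.13 and 0.929 in HAT1 WT and 1.31, 1.12 and 0.968 in HAT1 KO, so the ratios of the genotypes overlapped.

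**Figure D5:**
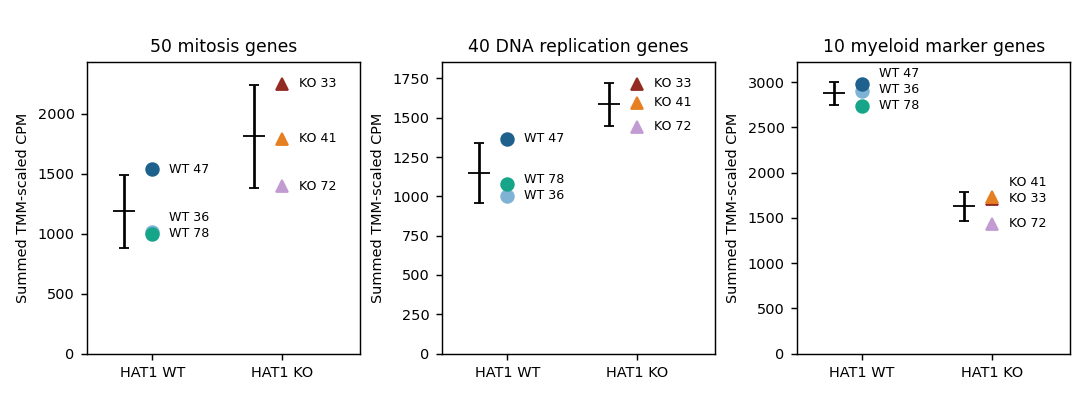
Summed CPM of the 50 members, of 40 DNA replication genes and of 10 myeloid marker genes in each line, with axes from 0 and black bars for the mean and 1 SD of 3 lines. For the members KO line 72 (1395) lies below WT line 47 (1539), for the replication genes the KO lines lie above all WT lines, and for the myeloid markers the WT lines (2739 to 2980) lie close together above the KO lines.

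Markers of other cell types that a mixed culture could hold were measured beside the members. The 10 myeloid markers were lower in HAT1 KO, all at an unadjusted p-value under 0.05 and 6 at an adjusted p-value under 0.05 in edgeR, with a median log2 fold change of -0.84. Cd53 measured 82.1, 84.7 and 77.9 CPM in HAT1 WT and 44.2, 48.3 and 42.4 CPM in HAT1 KO, and Tyrobp had a log2 fold change of -0.78 (SE 0.07). In edgeR, Cd53 and Tyrobp lost their calls with the lane or the Y-linked level as a term and without any line but KO line 72. The myeloid sum was 2905, 2980 and 2739 CPM in WT lines 36, 47 and 78 and 1710, 1730 and 1437 CPM in KO lines 33, 41 and 72, and its part in the mitotic differences was not tested. At an unadjusted p-value under 0.05, 2 of 5 tested endothelial markers, 1 of 6 fibroblast markers (Thy1) and 4 of 4 Y-linked genes were lower. At that threshold 1 of 6 neural markers (Tubb3) was higher, and 0 of 2 epithelial and 0 of 3 skeletal muscle markers differed. Over all tested genes 8.77% were lower and 5.88% higher at it, against which 1 gene in a list of 6 says little. After adjustment 0.528% of all tested genes passed in either direction. Summed fibroblast markers lay between 45509 and 77113 CPM over all lines. Summed endothelial markers lay between 9.19 and 12.7 CPM and summed epithelial markers between 1.09 and 2.49 CPM over all lines, while summed neural markers lay between 110 and 152 CPM in HAT1 WT and between 133 and 259 CPM in HAT1 KO and summed skeletal muscle markers between 28.5 and 80.3 CPM over all lines.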

How the data were processed

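RNA-seq of 6 pMEF lines was used, 3 per genotype, grouped by the genotype in the labels. The authors deposited raw read counts per gene, with no normalization. The submitters' processing notes name mm10 and edgeR. The aligner, the counter, the annotation and the strand setting are not given in the sources used here. Among counts of 1 to 10, 75.1% were even, so both reads of a fragment may have been counted. The authors' own comparison columns (log2 fold change, mean log2 CPM, F, p-value and q-value) were not used. Sample columns without a sample numbered 0, and 24 symbols turned into dates were restored by Ensembl identifier.

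Counts were tested in edgeR 4.0.16 (R 4.3.3) with filterByExpr, TMM scaling and a two-sided quasi-likelihood test of genotype, adjusted by Benjamini-Hochberg over 14773 genes at 0.05. Standard errors are approximate, the size of the log2 fold change over the root of F. CPM are TMM-scaled, and levels per kilobase use exon lengths of GENCODE M21 (GRCm38), which also gave positions. With totals of 67720628 to 98786746 counts, the spread between lines sets the precision. Promoter letters were taken from RefSeq (GRCm38.p6).

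The members and the lists were chosen with earlier results of these data known. Named genes were Hat1, the 12 members with the smallest p-values, the member with the smallest p-value and that with the largest CPM in each of 9 roles, the member with the lowest CPM, members of opposite sign and the 2 genes with the smallest p-values in each other list. Alternatives were DESeq2 1.42.0, voom with quality weights (limma 3.58.1), other scaling and filters, lane or Y-linked level as a term, and each line left out. The test was first tried on simulated counts, with a smaller dispersion than these data and larger changes than those of the members. That trial does not show how well the test works here.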

Additional observations from a re-analysis of the deposited data

How the results depend on the processing

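The litter of each line is not given in the sources used here, so no paired analysis was made. The median log2 fold change of the members stayed above 0 under every alternative run. It ran from 0.57 with the lane as a term to 0.95 with the Y-linked level, and from 0.49 to 0.93 without 1 line. The fit with the Y-linked level set the KO lines against WT line 78 alone, the lowest line for 33 members. The log2 ratio of the summed CPM of all members, 0.61, ran from 0.43 to 0.85 without 1 line. The 0 members called by edgeR became 5 in DESeq2, and at an unadjusted p-value, alone or with 1.5-fold, 28 and 24. Both of these became 0 with the lane as a term, and without 1 line they ran from 2 to 46 and from 2 to 43, while the share of all tested genes higher at an unadjusted p-value was 1.39% with the lane and 3.02% to 9.06% without 1 line. Other kinetochore and spindle genes at an unadjusted p-value, 17, became 3 with the lane, 26 in DESeq2, 29 in voom, and 4 to 34 without 1 line, and DNA replication genes, 25, became 10 with the lane, 13 with the Y-linked level, and 13 to 34 without 1 line. Pttg1 changed sign, to 0.016 with the Y-linked level and to 0.00898, 0.10 and 0.018 without WT line 36, KO line 33 or KO line 41, within a range of -0.17 to 0.10 without 1 line. Hat1 lost its call with the lane (-1.10), with the Y-linked level (-0.98) and without each line in turn (-1.08 to -0.87). Among the 45 genes recomputed, the 21 members named by the rule, Hat1 and 23 others given values, only Pttg1 changed sign. Nfyb and Nfyc were not among them. The causes were not tested, though fits without 1 line have fewer samples and lane 8 holds no KO line.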
